A study of Mus musculus with 6 samples.

Results

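The genes Upp2, Mecom, Ctsh, Krtap3-3, Tacr3 and Ankdd1a of the newborn mouse testis were chosen by their measured array signal, which set wild-type animals apart from animals that carry a deleted Sin3a allele. Every probe that the array names for 1 of these 6 genes was taken, which gave 8 probes of 55681 on the array, and 6 of the 8 passed the filter on dim probes, 1 for each gene, among 24568 genes tested. Sin3a encodes a scaffold protein of a histone deacetylase complex, and the study deleted it in germ cells. VSKO mice carried a Cre recombinase driven by the germ cell gene Ddx4 (Vasa) with 1 deleted and 1 floxed Sin3a allele. In HEMI mice, which held that Cre too, 1 allele was deleted and the other was wild type. In WT mice the Cre was present and neither allele was altered, so that all 3 groups held the transgene. All animals were males at postnatal day 0, of an FVB.129/Sv mixed strain, and the RNA came from whole testes. Each group had 2 animals, each measured on 1 array of 1 colour, with nothing pooled. VSKO and HEMI animals are called carriers below, after the deleted allele that they share.

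Members of this set have no pathway in common. Upp2 is a uridine phosphorylase, an enzyme that splits uridine into uracil and ribose phosphate and is best known from liver. Mecom (also called Evi1) is a zinc finger transcription factor of the PRDM family known for its part in blood stem cells, Ctsh is a lysosomal cysteine protease, Tacr3 is the receptor of the neuropeptide neurokinin B, and Krtap3-3 is a protein of the hair shaft that binds keratin filaments. Ankdd1a is named for its ankyrin repeats and death domain. In mice bred from more than 1 strain, a stretch of chromosome kept from 1 parental strain can give a gene a strain-specific level, and a base difference under a short array probe can change its signal without a change in the RNA. The strain genotype of these animals at the 6 genes was not tested.

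The 60-base probes that were on in some genotypes and off in others are the measurements on which the pattern turns, so 3 of them are printed here as deposited, 5′ to 3′ in the sense of the RNA, with no base marked. The array files place each on the mouse build mm9 as a single run of 60 bases, with no intron inside it. The Upp2 probe lies at chr2:58632424-58632483 on the plus strand, the Mecom probe at chr3:29876185-29876244 on the minus strand and the Ankdd1a probe at chr9:65351174-65351233 on the minus strand.
Upp2, A_52_P259817: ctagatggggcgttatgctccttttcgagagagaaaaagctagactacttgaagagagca
Mecom, A_51_P482148: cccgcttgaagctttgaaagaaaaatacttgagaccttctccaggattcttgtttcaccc
Ankdd1a, A_55_P2175110: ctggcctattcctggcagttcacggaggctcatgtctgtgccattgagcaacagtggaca
The remaining probes lie at chr9:89970828-89970887 on the plus strand for Ctsh, at chr11:99411448-99411507 on the minus strand for Krtap3-3 and at chr3:134596904-134596963 on the plus strand for Tacr3. The share of G and C was 45% for the Upp2, Mecom variant 2 and Ctsh probes, 43.3% for the Mecom variant 1 probe, 35% for Krtap3-3 and Tacr3 and 55% for Ankdd1a. Each probe had 1 spot per array.

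On each array the scanner software had flagged 59.2% to 64.5% of non-control spots as well above background, and none as saturated. The arrays lay on 1 slide scanned on 1 day. VSKO and HEMI arrays filled row 1 of the slide and WT arrays row 2, so that in every comparison with WT the row and the genotype cannot be told apart. Between VSKO and HEMI the row was the same. The targeted gene was measured first: the Sin3a probe averaged 0.50 ± 0.16 in VSKO, 0.89 ± 0.00 in HEMI and 1.1 ± 0.01 in WT testes on the log2 scale relative to the array's 75th percentile (SD, n = 2 each), and neither VSKO (difference -0.60, adjusted p = 0.134) nor HEMI (-0.21, adjusted p = 0.568) passed the limma test against WT. Here and below, adjusted p-values are those of limma over all genes. Whether that probe lies in the deleted exons was not tested. All 8 germ cell markers and all 8 Sertoli cell markers passed the filter on dim probes, and of the liver markers Alb, Apoa1, Fgb and Ttr were not. In whole testis RNA, fewer cells of a type and less RNA per cell cannot be told apart.

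Ctsh, Upp2, Mecom and Tacr3 were lower in carriers than in WT, and Krtap3-3 and Ankdd1a were higher. Of the enzymes, Ctsh, which trims proteins from their amino end in lysosomes, had processed signals of 759 and 830 in VSKO and 1172 and 752 in HEMI testes, against 5819 and 7416 in WT testes. All 4 carrier arrays lay far below both WT arrays, and VSKO and HEMI values overlapped each other. On the log2 scale Ctsh averaged 0.04 ± 0.31 in VSKO, 0.29 ± 0.50 in HEMI and 3.23 ± 0.11 in WT (SD, n = 2 each), which put it 9.14-fold lower in VSKO and 7.71-fold lower in HEMI than in WT. Its spots were well above background on all 6 arrays. The lowest WT array was 2.52 log2 units above the highest carrier array, and the widest gap between animals of a genotype was 0.71.

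Upp2, the uridine-splitting enzyme, had processed signals of 3.97 and 3.56 in VSKO and 5.17 and 3.98 in HEMI testes, against 78.7 and 78.9 in WT testes. It was not well above background on any carrier array and was above it on both WT arrays, and no carrier value came near a WT value. Before any background correction the spot itself read 24.8 and 28.0 in VSKO and 28.7 and 27.6 in HEMI, against 101.8 and 105.5 in WT, over local backgrounds of 12 to 18. On the log2 scale Upp2 averaged -7.68 ± 0.10 in VSKO, -7.41 ± 0.31 in HEMI and -3.15 ± 0.14 in WT (SD, n = 2 each). Since no carrier value was well above background, the fold is only a bound: Upp2 was at least 5.83-fold lower in VSKO and at least 6.07-fold lower in HEMI. For such bounds the mean of the group with signal was set against the faintest signal that any probe flagged as above background gave on each array of the group without. They hold for the processed signal only. With the normexp correction given below, the differences of the genes with bounds were smaller than these bounds.

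Upp2 has a second probe on the array, A_55_P2051159, 10.6 kb further along chromosome 2 at chr2:58643020-58643079, which starts at base 1567 of the same transcript while the first starts at base 851. This second probe was not well above background on any of the 6 arrays, with log2 levels of -7.99 ± 0.13 in VSKO, -8.08 ± 0.20 in HEMI and -7.35 ± 0.10 in WT (SD, n = 2 each). The contrast between carriers and WT thus stood on 1 of the 2 Upp2 probes, since the probe nearer the transcript's end was not well above background in any animal.

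Mecom, the transcription factor, had processed signals of 3.41 and 3.15 in VSKO and 3.48 and 6.41 in HEMI testes, against 99.0 and 74.3 in WT testes. The pattern of flags was that of Upp2, off on all 4 carrier arrays and on in both WT arrays, and HEMI replicate 2 was the highest of the carriers. The probe averaged -7.88 ± 0.13 in VSKO, -7.35 ± 0.58 in HEMI and -3.03 ± 0.43 in WT on the log2 scale (SD, n = 2 each). As a bound, Mecom was at least 6.35-fold lower in VSKO and at least 6.61-fold lower in HEMI.

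The Mecom probe just described belongs to the transcript that the array file calls variant 1. A second probe, A_55_P2111172, belongs to variant 2 and lies 259 kb away at chr3:30135491-30135550. It was off on all 6 arrays, with log2 levels of -6.84 ± 0.41 in VSKO, -7.13 ± 0.80 in HEMI and -7.39 ± 0.06 in WT (SD, n = 2 each), and its carrier and WT values overlapped. In and around the locus the array carries 35 further probes that are not named Mecom, 9 of them on the opposite strand. None had the on and off pattern of the variant 1 probe, 23 were never above background and 6 were above it on all arrays. The 10 that passed the filter differed from WT by -0.64 to 0.77 log2 units in VSKO and by -0.37 to 0.62 in HEMI. Of the 10, 2 had every carrier array below both WT arrays. A_30_P01022661 averaged -5.60 in VSKO, -5.33 in HEMI and -4.96 in WT. A_30_P01032756 averaged -1.76 in VSKO, -1.86 in HEMI and -1.57 in WT. Of the genes tested within 1 Mb of the 6 genes, 24.0% lay on 1 side of both WT arrays. These 35 probes lie at chr3:30048854-30125796, between the variant 1 and variant 2 probes, and none stands close to the variant 1 probe. Over the whole array 0.113% of probes were on in WT and off in carriers. Whether other parts of the variant 1 transcript share that pattern was not tested.

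**Figure D1:**
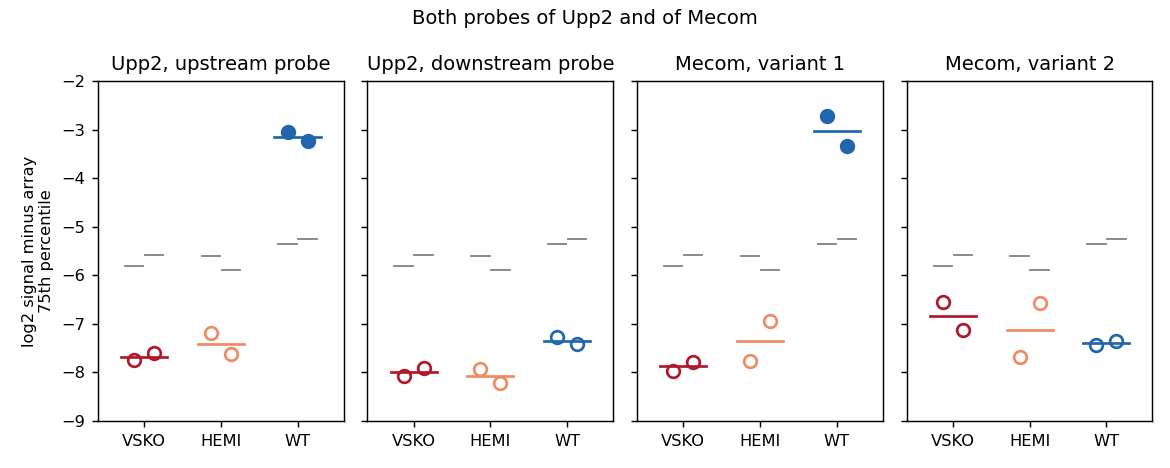
Log2 signal relative to the array's 75th percentile for both probes of Upp2 and both probes of Mecom, with 1 point per animal, filled where the spot was well above background and open where it was not. Coloured lines are means of 2 animals and grey ticks are the lowest probe signal well above background on each array. Both WT points of the upstream Upp2 probe and of the Mecom variant 1 probe stand at -3.33 or higher, and all points of the other probes stand below the grey ticks.

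Tacr3, the neurokinin B receptor, had processed signals of 222 and 194 in VSKO and 152 and 179 in HEMI testes, against 578 and 617 in WT testes. It was well above background on all 6 arrays, and again no carrier array reached a WT array. Mean log2 levels were -1.89 ± 0.08 in VSKO, -2.22 ± 0.12 in HEMI and -0.23 ± 0.07 in WT (SD, n = 2 each), or 3.18-fold lower in VSKO and 3.99-fold lower in HEMI than in WT. The gap between the nearest carrier and WT arrays was 1.56 log2 units, against at most 0.16 between animals of a genotype. VSKO and HEMI values of Tacr3 did not overlap, with both HEMI arrays lower.

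The other genes ran the opposite way. Krtap3-3, a hair shaft protein, had processed signals of 117 and 144 in VSKO and 113 and 165 in HEMI testes, against 3.52 and 4.28 in WT testes. It was well above background on all 4 carrier arrays and on neither WT array. Its spot read 143.2 to 196.2 on carrier arrays and 24.7 and 27.3 on WT arrays, over local backgrounds of 18 to 24.5. Mean log2 levels were -2.57 ± 0.42 in VSKO, -2.49 ± 0.34 in HEMI and -7.49 ± 0.06 in WT (SD, n = 2 each), so that Krtap3-3 was at least 6.65-fold higher in VSKO and at least 7.0-fold higher in HEMI. The lowest carrier reading was 4.58 log2 units above the highest WT reading, and animals of a genotype differed by at most 0.59.

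Ankdd1a had processed signals of 30.1 and 31.5 in VSKO and 23.2 and 31.1 in HEMI testes, against 4.42 and 5.13 in WT testes. It too was on in every carrier and off in both WT animals, but it was dim: its spot read 61.8 and 62.0 in VSKO and 54.3 and 62.2 in HEMI, against 33.1 and 35.1 in WT. The log2 level averaged -4.65 ± 0.26 in VSKO, -4.84 ± 0.25 in HEMI and -7.20 ± 0.01 in WT (SD, n = 2 each). The bound on its fold was accordingly low, at least 1.58-fold higher in VSKO and at least 1.37-fold higher in HEMI. Carrier and WT readings were 2.17 log2 units apart at the nearest, against at most 0.37 between animals of a genotype.

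**Figure D2:**
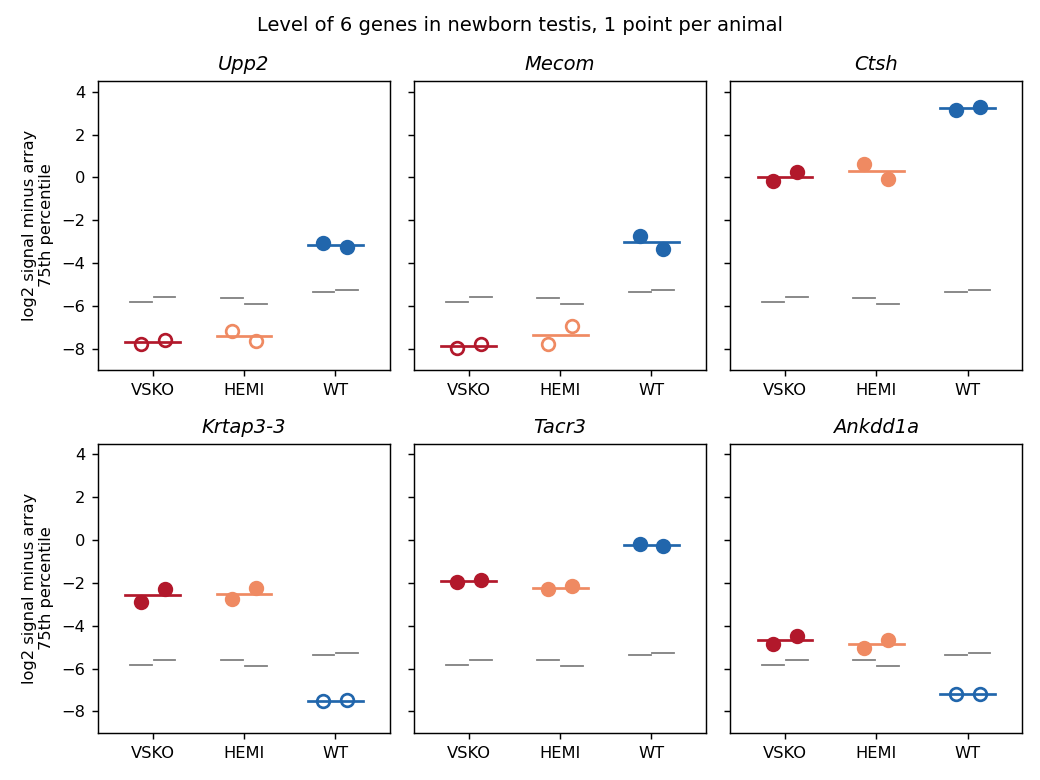
Log2 signal relative to the array's 75th percentile for the 6 genes, with 1 point per animal, filled where the spot was well above background and open where it was not. Coloured lines are means of 2 animals and grey ticks are the lowest probe signal well above background on each array. In each panel the VSKO and HEMI points stand together and apart from the WT points, by 1.56 log2 units for Tacr3 and 4.58 for Krtap3-3.

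All 4 carrier arrays stood on 1 side of both WT arrays by over 1 log2 unit for 6 of the 6 genes, where 0.66% of all genes did so (162 of 24546). This separation is what chose the genes, and it is given as a description. For the same reason no test against WT is given for them: 240 of 24568 genes, or 0.977%, passed the limma test in VSKO against WT and 29, or 0.118%, in HEMI against WT. How far the levels of dim probes differ depends on the background correction. With normexp correction and an offset of 50, which is added to every spot and draws dim probes together, the difference from WT in VSKO and HEMI was -1.28 and -1.22 log2 units for Upp2, -1.43 and -1.38 for Mecom, 1.52 and 1.56 for Krtap3-3, 0.33 and 0.28 for Ankdd1a and -1.35 and -1.60 for Tacr3. All kept their direction.

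Probes that are on in some genotypes and off in the rest were counted over the whole array. The pattern of Krtap3-3 and Ankdd1a, on in all carriers and off in WT, was shared by 392 probes, or 0.704% of all, and the pattern of Upp2 and Mecom, on in WT and off in all carriers, by 63 probes, or 0.113%. The share of spots above background was 62.4% to 64.5% on carrier arrays and lower on WT arrays, at 61.6% and 59.2%. The faintest signal flagged as above background was -5.89 to -5.57 on carrier arrays on the log2 scale, and higher on WT arrays, at -5.35 and -5.25. The part of this in the counts was not tested. The genes were chosen by their difference from WT, so a high rank by the size of this step was built in and is given as a description. By the size of the step, Krtap3-3 was number 2 and Ankdd1a number 14 of the 392, whose median step was 0.85 log2 units. Mecom was number 5 and Upp2 number 8 of the 63, with a median step of 2.25. A further 226 probes were on in VSKO alone, 118 in HEMI alone, 54 in HEMI and WT but not VSKO, and 21 in VSKO and WT but not HEMI.

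**Figure D3:**
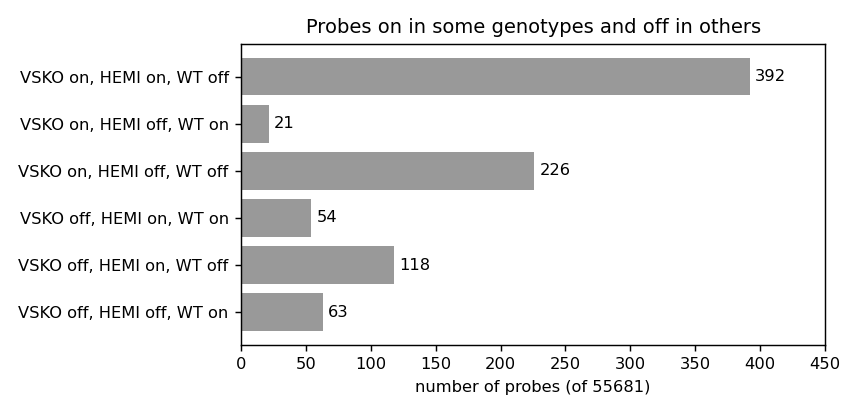
Number of probes, of 55681, that were well above background on both arrays of some genotypes and on no array of the others, by pattern. Probes on in VSKO and HEMI and off in WT are the most frequent, 392, and 63 probes have the reverse pattern.

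The comparison of VSKO with HEMI did not choose the genes and was tested, although picking genes that lie on 1 side of WT in both groups favours small differences between them. It asks whether loss of the second Sin3a allele in germ cells went with a further change. None of the 4 genes with signal above background in VSKO and HEMI passed, where 0.142% of genes did (35 of 24568). Tacr3 was 0.33 log2 units higher in VSKO than in HEMI (SE 0.13, 95% confidence interval 0.00 to 0.65), with an unadjusted limma p of 0.0497 and an adjusted p of 0.647. Ankdd1a differed by 0.20 (SE 0.19, interval -0.29 to 0.69) and Krtap3-3 by -0.08 (SE 0.26, interval -0.74 to 0.59), both with an adjusted p = 0.999. The SE pools the spread over all genotypes, WT included. For Ankdd1a and Krtap3-3 the WT arrays were off, with SDs of only 0.01 and 0.06, which makes their intervals narrower. Ctsh differed by -0.24 (SE 0.28, interval -0.96 to 0.47, adjusted p = 0.999). Upp2 and Mecom were not well above background in either group, so that their readings give no difference in level. Since the intervals reach from -0.96 to 0.47 log2 units for Ctsh and from -0.74 to 0.59 for Krtap3-3, these tests do not show that the genes are alike in VSKO and HEMI.

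**Figure D4:**
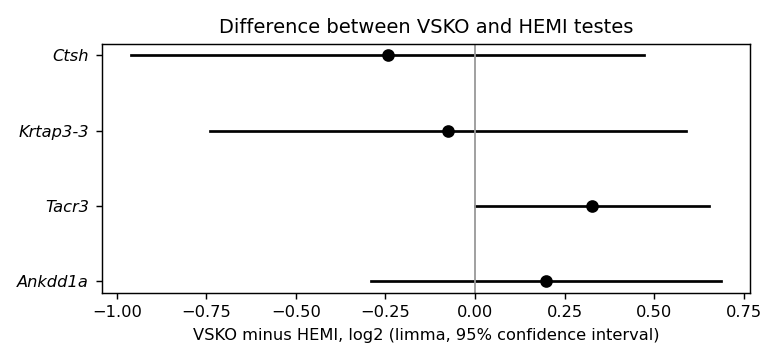
Difference between VSKO and HEMI testes on the log2 scale for the 4 genes with signal in both, from limma, with 95% confidence intervals as bars. The intervals of Ctsh, Krtap3-3 and Ankdd1a include 0, and that of Tacr3 starts at 0.00 and ends at 0.65.

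Positions of the genes were set against one another and against Sin3a, since a targeted locus can keep flanking chromosome of the strain in which it was made. Ankdd1a and Ctsh lie on chromosome 9 as Sin3a does, 8.38 Mb and 33.0 Mb from its probe and 24.6 Mb from each other. Mecom and Tacr3 are both on chromosome 3, 104.7 Mb apart, Upp2 is on chromosome 2 and Krtap3-3 on chromosome 11. The 6 genes thus come from 4 chromosomes, and no gene lies within 1 Mb of another or of Sin3a. Ankdd1a was higher and Ctsh lower in carriers; both share a chromosome with the targeted gene.

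Neighbouring genes were then read. Within 0.5 Mb of the 6 genes 88 other genes were tested and none passed in VSKO or in HEMI against WT, with 9 and 8 at an unadjusted limma p under 0.05, or 10.2% and 9.09%, where 14.7% and 12.4% of all genes had such a p. Within 1 Mb, 2 of 167 passed in VSKO (1.2%) and 1 in HEMI (0.599%), against 0.931% and 0.115% of all genes with a position. Beside Ctsh, the chromatin protein gene Morf4l1, 15.7 kb away, averaged 5.58 ± 0.00 in VSKO, 5.55 ± 0.05 in HEMI and 5.71 ± 0.02 in WT on the log2 scale (SD, n = 2 each), which did not pass (adjusted p = 0.643 and 0.613). The nearest neighbours of the others with a gene symbol did not pass either: Acvr1 and Ccdc148 beside Upp2, Egfem1 and Mynn beside Mecom, Rasgrf1 beside Ctsh, Krt23 and Krtap1-4 beside Krtap3-3, Cxxc4 and Cenpe beside Tacr3, and Spg21 and Plekho2 beside Ankdd1a. Of these, Rasgrf1, which activates Ras, differed most in VSKO, by 1.18 log2 units (adjusted p = 0.0845; 0.52 in HEMI, adjusted p = 0.397), and Egfem1 differed most in HEMI, by -0.81 (adjusted p = 0.326).

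Both neighbours that passed lie beside Upp2 on chromosome 2. The unnamed probe A_55_P2037689, 605 kb away at chr2:59237496-59237555, averaged 1.39 ± 0.16 in VSKO, 1.19 ± 0.04 in HEMI and 2.95 ± 0.01 in WT on the log2 scale (SD, n = 2 each), a fall by 1.55 in VSKO (adjusted p = 0.0276) and by 1.75 in HEMI (adjusted p = 0.0407). The transcript 5330411J11Rik, 588 kb away, averaged -6.04 ± 0.44 in VSKO, -4.70 ± 0.24 in HEMI and -3.14 ± 0.29 in WT, and passed in VSKO (difference -2.91, adjusted p = 0.0299) but not in HEMI (-1.57, adjusted p = 0.138). The VSKO arrays read -5.73 and -6.35 for 5330411J11Rik, where the faintest signals flagged as above background on them were -5.81 and -5.57. With VSKO that close to background, the size of its fall in VSKO is uncertain. These 2 probes, A_55_P2037689 and 5330411J11Rik, are close to each other and do not stand for separate regions. Neither passed in any of the 6 fits that left out 1 array, in which A_55_P2037689 fell by 1.44 to 1.67 and 5330411J11Rik by 2.59 to 3.22 in VSKO.

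**Figure D5:**
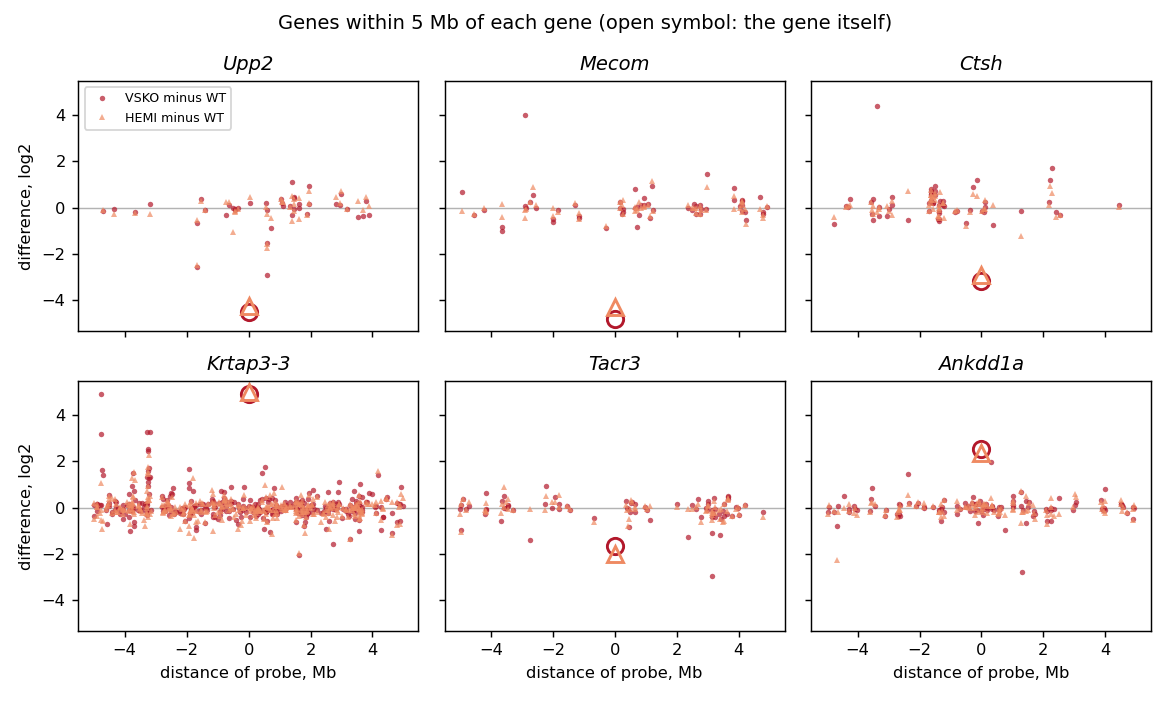
Difference from WT on the log2 scale of genes within 5 Mb of each of the 6 genes, by distance of their probe, as circles for VSKO and triangles for HEMI, with the gene itself as the open symbol at 0. Within 0.5 Mb none of 88 neighbours passed the limma test in either comparison. Further out some points are as far from 0 as the gene at the centre. Tmem92, 4.77 Mb from Krtap3-3, is at 4.94 in VSKO and 1.06 in HEMI. Others differ alike in both groups, without passing the limma test. Nr4a2, 1.67 Mb from Upp2, is at -2.59 in VSKO and -2.47 in HEMI. Ccr10, 1.62 Mb from Krtap3-3, is at -2.05 in VSKO and -1.95 in HEMI.

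Krtap3-3 sits in the type I hair keratin and keratin-associated protein cluster, where related genes stand close together. Of the probes within 10 kb, that of the transcript ENSMUST00000104931 read -3.78 in VSKO, -3.82 in HEMI and -3.85 in WT on average, without the step of Krtap3-3. Krt40 and Krtap3-2 were off on all 6 arrays. Of 19 keratins and keratin-associated proteins of the cluster 9 passed the filter on dim probes and none passed the test in any comparison. Of all genes 0.977% passed in VSKO against WT, 0.118% in HEMI against WT and 0.142% in VSKO against HEMI. Krt31 had a mean log2 level of -2.38 in VSKO, -2.44 in HEMI and -2.27 in WT, and Krtap9-1 had -2.69 in VSKO, -2.71 in HEMI and -2.63 in WT. As a list, the 9 had a median difference of -0.06 in VSKO and -0.10 in HEMI. Of the 9, 2 had an unadjusted limma p under 0.05 in VSKO and 0 in HEMI, where 14.7% and 12.4% of all genes did. The 2 were Krt34, with differences of -0.94 and -0.48 (adjusted p = 0.175 and 0.493), and Krt35, with 1.77 and 0.96 (adjusted p = 0.244 and 0.546). Krtap17-1 was 1.5 above WT in VSKO and 0.32 in HEMI (adjusted p = 0.421 and 0.876), with WT arrays at -5.36 and -3.17. Krt34, Krt35 and Krtap17-1 are named after their values were seen. Skin and hair markers had summed levels of 3.33 to 4.40 in VSKO, 3.31 to 3.89 in HEMI and 3.62 to 3.85 in WT, with Dsg3, Flg and Krt1 not above background.

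Promoter windows from RefSeq (GRCm38.p6, 250 bases before to 50 after a gene's start) were found for 4 of the 6 genes, 6 windows in all, with none for Ctsh and Ankdd1a. The windows were searched on both strands for 4 motifs. Of 32851 windows 24.7% hold TATANA (the TATA box), 37.4% hold CCAAT (the CAAT box), 7.15% hold CACGTG (an E-box) and 35.7% hold GGGCGG (the GC box). Krtap3-3 and Tacr3 are shown as 1 gene that was higher and 1 that was lower in carriers, with the 250 bases before the start, 5′ to 3′, and matches to the TATA box and CAAT box letters on either strand in capitals. The Krtap3-3 stretch is chr11:99550864-99551113 on the minus strand and the Tacr3 stretch is chr3:134828757-134829006 on the plus strand.
Krtap3-3: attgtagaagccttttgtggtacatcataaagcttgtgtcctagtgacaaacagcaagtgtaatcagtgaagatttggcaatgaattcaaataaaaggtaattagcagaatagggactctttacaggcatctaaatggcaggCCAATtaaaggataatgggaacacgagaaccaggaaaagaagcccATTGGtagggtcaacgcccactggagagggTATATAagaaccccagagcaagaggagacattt
Tacr3: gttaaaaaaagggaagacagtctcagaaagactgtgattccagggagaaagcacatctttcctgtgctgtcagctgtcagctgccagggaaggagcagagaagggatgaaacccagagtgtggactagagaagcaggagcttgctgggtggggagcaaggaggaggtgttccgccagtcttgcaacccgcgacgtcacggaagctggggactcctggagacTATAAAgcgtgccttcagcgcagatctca
Both stretches hold 1 match to TATANA close before the start, which begins at position -33 in Krtap3-3 and -29 in Tacr3, and Krtap3-3 also holds 2 matches to CCAAT. One of the 2 Upp2 windows holds TATANA at -29 as well, and the other has 4 matches to the GC box. The E-box was in none of the 6 windows. Such a match near the start was thus found both in a gene that was higher and in genes that were lower in carriers, as letters in a window and not as a site shown to be used.

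Partners of these genes in a pathway or family were read from 6 lists. Of their 87 genes 69 passed the filter on dim probes, none passed the test in VSKO or HEMI against WT or in VSKO against HEMI, where the shares called among all genes were also low, 0.977%, 0.118% and 0.142%, and 10, 8 and 3 had an unadjusted limma p under 0.05, or 14.5%, 11.6% and 4.35%, where 14.7%, 12.4% and 7.69% of all genes did. Upp1, the other uridine phosphorylase, averaged -1.53 ± 0.08 in VSKO, -1.45 ± 0.20 in HEMI and -0.77 ± 0.08 in WT (SD, n = 2 each), differences of -0.76 and -0.68 that did not pass (adjusted p = 0.112 and 0.184). Uck1, Umps and Slc29a1, the brightest of that list, differed by -0.09, 0.06 and -0.03 in VSKO and by 0.04, 0.03 and -0.07 in HEMI. The list of uridine and pyrimidine enzymes and transporters had a median difference from WT of 0.03 in VSKO and 0.03 in HEMI. Over all genes the medians were -0.01 and -0.02. Prdm16, the PRDM relative closest to Mecom, differed from WT by -0.24 in VSKO and 0.45 in HEMI, and the PRDM list had medians of 0.06 and 0.12. Among lysosomal proteases and their inhibitors, Ctsl was 0.63 log2 units below WT in VSKO and 0.68 in HEMI without passing, Cst3, an inhibitor of such proteases, differed by 0.04 and -0.27, and the list's medians were 0.07 and -0.07.

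Tacr3 has its ligand and relatives on the array. Tac2, the gene of neurokinin B in mice, averaged -1.86 ± 0.48 in VSKO, -2.38 ± 0.28 in HEMI and -1.87 ± 0.17 in WT on the log2 scale (SD, n = 2 each). Its VSKO values overlapped those of both other groups, while the HEMI values lay below those of WT, and neither difference passed the test. Tacr2, another tachykinin receptor, differed by 0.01 in VSKO and -0.11 in HEMI. Pdyn, which encodes the opioid precursor prodynorphin, was 0.98 below WT in VSKO and 1.17 in HEMI (adjusted p = 0.131 and 0.141), and the list of 6 measured genes had medians of -0.04 and -0.47. For Ankdd1a, the list of ankyrin repeat and death domain proteins had medians of 0.12 and 0.08, and the netrin receptor Unc5b differed by 0.15 and -0.14.

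Summed markers of several cell types were lower in carriers too. The summed linear level of 5 fetal Leydig cell markers was 79.5 to 81.2 in VSKO and 70.1 to 88.2 in HEMI, against 115 to 133 in WT, and 1 of the 5, the steroid enzyme gene Cyp17a1, fell by 1.40 log2 units in VSKO (adjusted p = 0.0423), a call lost in each of the 6 fits without 1 array. Cyp17a1 differed by -1.03 in HEMI (adjusted p = 0.120), and of all genes 0.977% passed in VSKO against WT. Of the 5 Leydig markers 4 had an unadjusted limma p under 0.05 in VSKO and 4 in HEMI. Of all genes 14.7% and 12.4% did. Hsd3b1, the brightest of the 5, differed by 0.03 and -0.13. The sum over 3 adrenal cortex markers was 3.95 to 4.05 in VSKO and 3.01 to 3.37 in HEMI, against 5.99 to 11.6 in WT. Cyp11b2 did not pass the filter on dim probes. Of these 3 markers 2 had such a p in VSKO and 2 in HEMI. Endothelial markers summed to 17.8 to 18.8 in VSKO and 17.4 to 19.1 in HEMI, against 21.7 to 22.2 in WT. Germ cell markers summed to 23.7 to 24.7 in VSKO and 23.3 to 26.5 in HEMI, against 25.9 to 28.6 in WT, where the HEMI and WT ranges overlap. Liver markers summed to 13.6 to 14.0 in VSKO and 13.9 to 15.4 in HEMI, against 16.2 to 17.1 in WT. Kidney markers summed to 0.668 to 0.697 in VSKO and 0.662 to 0.781 in HEMI, against 0.787 to 1.11 in WT. Of 7 kidney markers, Slc12a1, Slc12a3 and Umod did not pass the filter on dim probes. Gene by gene, none of 6 endothelial or 4 kidney markers had an unadjusted limma p under 0.05 against WT. Of 3 liver markers 0 had it in VSKO and 1 in HEMI, and of 8 germ cell markers 2 and 3. Sertoli cell markers overlapped, at 202 to 222 in VSKO and 190 to 285 in HEMI, against 215 to 235 in WT. So did markers of the mesonephric duct, at 23.8 to 40.0 in VSKO and 27.2 to 39.6 in HEMI, against 25.0 to 28.9 in WT, of which Lhx1 was higher by 1.25 log2 units in VSKO and passed the test, though in none of the 6 fits without 1 array. Macrophages, which hold much Ctsh, had summed marker levels of 8.96 to 13.1 in VSKO and 7.64 to 14.2 in HEMI, against 9.78 to 12 in WT, groups that overlap. The part of any of these cell types in the levels of the 6 genes was not tested.

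Genes whose signal ran most like each of the 6 over the 6 arrays were picked, by Pearson's r, among genes at least 1 log2 unit from WT in both carrier groups in the same direction, 183 that were lower and 111 that were higher, so that a high r was built in and is given as a description. For Upp2 they were the olfactory receptor genes Olfr535 (r = 0.997) and Olfr1317 (r = 0.994), both off in all carriers and on in WT, and Radx (r = 0.991). For Mecom they were Ggnbp1 and Rbmy (r = 0.997 each) and Nsg2 (r = 0.996), for Ctsh A730081D07Rik (r = 0.991), Radx (r = 0.990) and Higd1b (r = 0.989), and for Tacr3 Sdf2l1 (r = 0.998), Vmn2r111 (r = 0.996) and Dnmt3l (r = 0.995). For the genes higher in carriers, Scin (r = 0.989 and 0.995) and Mybpc3 (r = 0.985 each) stood near both Krtap3-3 and Ankdd1a, with Ctag2 (r = 0.992) for the first and Qpct (r = 0.991) for the second. Dnmt3l, a cofactor of DNA methylation in male germ cells, averaged -0.11 in VSKO, -0.54 in HEMI and 1.65 in WT on the log2 scale, and Rbmy, a Y-linked RNA-binding protein of germ cells, 1.13 in VSKO, 1.48 in HEMI and 3.43 in WT.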

How the data were processed

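For each spot the authors' deposited array files hold a processed intensity, which per the file headers had its background subtracted, and the mean and local background intensities it came from. They also hold 0 or 1 quality flags (unit: other), of which those for outliers, saturation and signal above background were used as deposited. Feature Extraction was version 10.7.3.1 per the file headers, whereas the submitters' processing notes name 8.5.1.1. The authors' series table, also an intensity, was checked to equal the processed signal over the array median.

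Log2 processed signals were shifted by each array's 75th percentile, outlier spots left out and spots of a probe averaged. A probe was kept if some genotype had it well above background in both animals (34363 probes), and the probe with the highest mean stood for its gene. Names came from a RefSeq table (GRCm38.p6) through accessions for 26762 and 102 probes, 3751 already had its symbol and 25066 kept the array's name. One model over the 6 arrays, with a mean for each genotype, was fitted by limma 3.58.1 (R 4.3.3), with 3 residual and 2.25 prior degrees of freedom, Benjamini-Hochberg adjustment over all genes and calls at an adjusted p under 0.05, and the fit was tested on simulated data. The genes named are the 6, their neighbours by position, those most like them over the arrays, and the called or highest members of each list. The 6 genes and the lists were chosen with earlier results of these data known. The limma p-values set a difference against the spread between animals of the same genotype, pooled over the genotypes and moderated across genes. The number of arrays limits the precision.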

Additional observations from a re-analysis of the deposited data

How the results depend on the processing

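Differences of the 6 genes from WT kept their direction under every alternative run. VSKO minus HEMI turned for Ctsh to 0.11 without HEMI replicate 1, and for Krtap3-3 to 0.22 without VSKO replicate 1 and 0.17 without HEMI replicate 2 (leaving out an array, -0.60 to 0.11 and -0.37 to 0.22). Requiring signal above background on all arrays gave no value for Upp2, Mecom, Krtap3-3 and Ankdd1a. The 240 genes called in VSKO against WT became 12 with no filter on dim probes and 19 with the replicate number as a block, and 0 to 69 when an array was left out. The 29 of HEMI against WT became 55 with median scaling or the series table, 131 with normexp (20 higher and 111 lower), 68 with the filter on all arrays, 130 with an intensity trend, 0 unfiltered and 0 with the block (5281 and 2795 at an unadjusted limma p under 0.05), and 0 to 8 leaving out an array. The 35 of VSKO against HEMI became 80 with median scaling or the series table, 17 with quantile normalization, 5 unfiltered, 15 with the filter on all arrays, 0 with the block (1874 unadjusted), and 0 to 41 leaving out an array. The 2 and 1 called neighbours within 1 Mb became 0 and 0 within 0.5 Mb, unfiltered or with the block, and 1 in VSKO with the filter on all arrays. Within 5 Mb, a window added after seeing the data, 6 of 711 genes were called in VSKO. That is 0.844%, next to 0.931% of all genes with a position. The cause of the changes in these counts was not tested. The labels give no pairing of the animals by replicate number. Deviations of same-numbered arrays correlated over the genes at -0.027, -0.006 and -0.037, which cannot exclude a pairing that touches few genes. With 2 animals per group and dim probes, signal over background limits the folds of Upp2, Mecom, Krtap3-3 and Ankdd1a to bounds.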

Other observations

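Within the Mecom locus 4 of the 35 further probes, picked after their values were seen, were on in some carriers and in no WT animal. Over the whole array 226 probes, or 0.406%, were on in VSKO alone and 118, or 0.212%, in HEMI alone. For 12.9% of all probes the animals of some genotype differed in their flag. Whether the 4 exceed what 35 probes would hold elsewhere was not tested. A_30_P01030140, at chr3:30125737-30125796, was on in both VSKO animals, at -5.80 and -5.29 on the log2 scale, and A_30_P01019731, at chr3:30049010-30049069, in both HEMI animals, at -5.35 and -5.23. Both are dim and lie near the readings of arrays on which they were off. A_30_P01025361, at chr3:30108056-30108115, read -2.08 in VSKO replicate 2 and -4.95 in HEMI replicate 2 on the log2 scale and was off on the other 4 arrays. A_30_P01029702, at chr3:30101059-30101118, read -4.16 in VSKO replicate 1 and -3.11 in HEMI replicate 1 and was off on the other 4. These last 2 were each on in 1 animal of both carrier genotypes, and no animal had both of them on.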
